A study of Mus musculus with 8 samples.

Results

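The fibroblast growth factor (FGF) ligands are secreted proteins, and 10 of their genes, Fgf1, Fgf2, Fgf3, Fgf5, Fgf9, Fgf10, Fgf16, Fgf17, Fgf18 and Fgf20, were followed here in dental epithelium of the mouse incisor. They were chosen by name, and every probe for them was taken. The arrays held 12 probes for these 10 genes, among 41174 noncontrol probes that represented 17178 named genes. Total RNA had been prepared from 4 wild-type (WT) samples and 4 samples homozygous null for Bmi1, all of mixed genetic background. Bmi1 encodes a Polycomb protein that helps keep developmental genes silent. The labels gave neither ages nor the construction of the null allele, and did not say that the samples of a group came from separate animals, so the p-values measure only the spread between these samples. The epithelium had been peeled mechanically from the mesenchyme after enzyme treatment of whole incisors, and each sample was hybridised to 1 single-colour Agilent array.

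An FGF ligand binds a receptor tyrosine kinase on the cell surface together with heparan sulfate, and the receptor signals through Ras and ERK kinases to ETS transcription factors and to Sprouty feedback inhibitors. The mouse incisor grows throughout life from epithelial stem cells in the cervical loop. Fgf3 and Fgf10 are known from the mesenchyme beside the loop and act on the epithelium, whereas Fgf9 and Fgf20 are known from the dental epithelium. Fgf3 and Fgf10 are called the mesenchymal ligands below, Fgf9 and Fgf20 the epithelial ligands, and the other 6 were assigned to neither side.

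Polycomb complexes in mammals tend to occupy stretches rich in CpG dinucleotides. The promoters printed are those of the 5 ligands on which the results turn, so they were chosen by their results. RefSeq windows of the GRCm38.p6 build were found for 6 of the 10 genes. Each line gives the 250 bases before the annotated start, 5′ to 3′ on the gene's strand, with every CG in capitals. The windows lie at chr7:144838362-144838611 for Fgf3, chr13:118714449-118714698 for Fgf10, chr14:58072436-58072685 for Fgf9 and chr5:98253934-98254183 for Fgf5, all on the plus strand, and at chr11:33147401-33147650 on the minus strand for Fgf18.
Fgf3: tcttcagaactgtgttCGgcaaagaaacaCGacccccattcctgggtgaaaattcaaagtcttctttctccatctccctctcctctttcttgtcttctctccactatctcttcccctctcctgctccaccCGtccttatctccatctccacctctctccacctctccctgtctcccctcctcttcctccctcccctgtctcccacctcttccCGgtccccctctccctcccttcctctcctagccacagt
Fgf10: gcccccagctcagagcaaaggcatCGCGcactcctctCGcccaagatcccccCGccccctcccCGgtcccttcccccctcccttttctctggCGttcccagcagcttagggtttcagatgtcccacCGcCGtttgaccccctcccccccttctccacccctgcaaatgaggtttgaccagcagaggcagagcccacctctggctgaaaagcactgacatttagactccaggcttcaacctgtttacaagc
Fgf9: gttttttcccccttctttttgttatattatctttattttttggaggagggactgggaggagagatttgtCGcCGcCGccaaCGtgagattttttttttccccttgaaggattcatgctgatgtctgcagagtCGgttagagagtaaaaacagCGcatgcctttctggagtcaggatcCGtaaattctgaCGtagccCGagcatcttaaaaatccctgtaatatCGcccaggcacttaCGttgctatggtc
Fgf5: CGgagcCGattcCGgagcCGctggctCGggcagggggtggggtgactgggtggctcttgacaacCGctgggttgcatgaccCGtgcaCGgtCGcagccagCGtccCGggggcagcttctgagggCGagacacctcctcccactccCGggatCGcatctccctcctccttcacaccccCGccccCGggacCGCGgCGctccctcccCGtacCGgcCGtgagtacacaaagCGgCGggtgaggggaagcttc
Fgf18: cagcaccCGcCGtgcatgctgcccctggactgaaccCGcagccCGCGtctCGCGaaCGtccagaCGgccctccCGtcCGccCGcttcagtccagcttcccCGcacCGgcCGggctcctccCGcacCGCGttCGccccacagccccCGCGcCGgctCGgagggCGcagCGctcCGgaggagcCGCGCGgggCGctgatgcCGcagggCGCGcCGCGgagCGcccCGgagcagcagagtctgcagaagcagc

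The Fgf3 window held 4 CG dinucleotides, the Fgf10 window 8, the Fgf9 window 11, the Fgf5 window 24 and the Fgf18 window 37. The median over 32851 mouse promoter windows of this length was 6. At least as many CG as in Fgf18 stood in 2.2% of those windows, and at least as many as in Fgf5 in 12%, against 35.6% for Fgf9, 43.0% for Fgf10 and 62.2% for Fgf3. The 2 mesenchymal ligands thus had the fewest CG of the printed windows and Fgf5 and Fgf18 the most. The Fgf2 window, found but not printed, held 20 CG, and 17.9% of all windows held at least as many. Fgf2, near the detection limit, had a log2 difference of -0.12 between null and WT samples. Whether the CG count goes with the direction of a ligand's difference was not tested. The letters TATAAA, searched on both strands, stood in none of these windows and in 12.4% of all windows. These counts describe the letters only; no binding was measured.

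Bmi1 itself was lower in the null samples by a log2 difference of -2.82 ± 0.37 (standard error, limma, adjusted p = 0.0309). The 75th percentile of the signal ran from 617 to 1902 on WT arrays and from 440.4 to 796 on null arrays, and the share of probes well above background from 69.6% to 74.4% and from 64.2% to 68.0%. Levels below are given in log2 units above or below that percentile of the same array, so they can be compared between arrays for 1 probe but not between probes. The lowest signal well above background averaged -6.80 on WT and -6.12 on null arrays. Null replicate 1 stood apart from the rest, with a mean correlation of 0.947 to the other arrays against 0.970 to 0.976 for the other 7. All 11 epithelium marker genes on the array (Krt14, Ambn and Amelx among them) were well above background on all 8 arrays, and so were all 16 mesenchyme and odontoblast markers, such as Col1a1, Lum and Dcn. RNA of mesenchymal genes was thus present in samples labelled as epithelium. In such bulk samples fewer cells of a type and less RNA per cell cannot be told apart.

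The epithelium markers averaged 3.93 ± 0.29 (SD, n = 4) in WT and 5.05 ± 0.57 in null samples, a difference of 1.12 (two-sided exact permutation test, p = 0.0286, the smallest that 4 against 4 allows, and 0.133 after adjustment over 7 marker lists). All 11 were higher on average in the null samples. Odam and Klk4, genes of late enamel formation, had log2 differences of 3.36 and 2.62 and carried much of that mean, while the other 9 markers lay between 0.31 and 0.96, and the median of the 11 was 0.81. The mesenchyme markers averaged 3.45 ± 0.14 and 3.55 ± 0.53, a difference of 0.11 (exact permutation p = 0.714), with 9 of 16 higher and 7 lower. As single genes they differed by -1.58 (Dmp1) to 1.91 (Barx1), with a median of 0.21. Averaging over the probes of each gene brought the difference of the list from 0.11 to 0.009. Dspp and Msx1, counted on this list, are also made by some dental epithelial cells. The summed signal of the mesenchyme markers spanned 413 to 587 times the 75th percentile in WT and 410 to 854 times in null samples. Relative to their WT mean, the mesenchyme markers stood at -0.61, 0.66, 0.25 and 0.13 in null replicates 1 to 4, so they were lowest in replicate 1 and highest in replicate 2.

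Of the 10 ligands, 8 had a probe that reached this level of detection on 4 or more of the 8 arrays and were tested. Fgf1, Fgf3, Fgf9, Fgf10 and Fgf18 were well above background on all 8 arrays. None of the 8 tested ligands passed the 5% false discovery rate in limma, where 0.0492% of the 22345 genes tested did. Of these 22345, 13861 carried a gene name. Each entering probe without a name was counted as 1 gene, here and in all values given for all genes. Without adjustment, 2 ligands (Fgf5, Fgf18) were higher and 1 (Fgf3) was lower at p under 0.05, against 4.2% of all genes higher and 2.16% lower. The log2 differences were positive for 4 and negative for 4, with a median of -0.05 against 0.01 over all genes, whose quartiles were -0.22 and 0.24. WT and null samples did not overlap for Fgf5, with null samples higher, and for Fgf3, with null samples lower. Such separation was seen for 1.82% of all genes on the higher side and 1.26% on the lower side. Fgf5 entered the test only because it was detected in null samples, which favours a positive difference. The counts over the 8 are therefore descriptions.

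**Figure D1:**
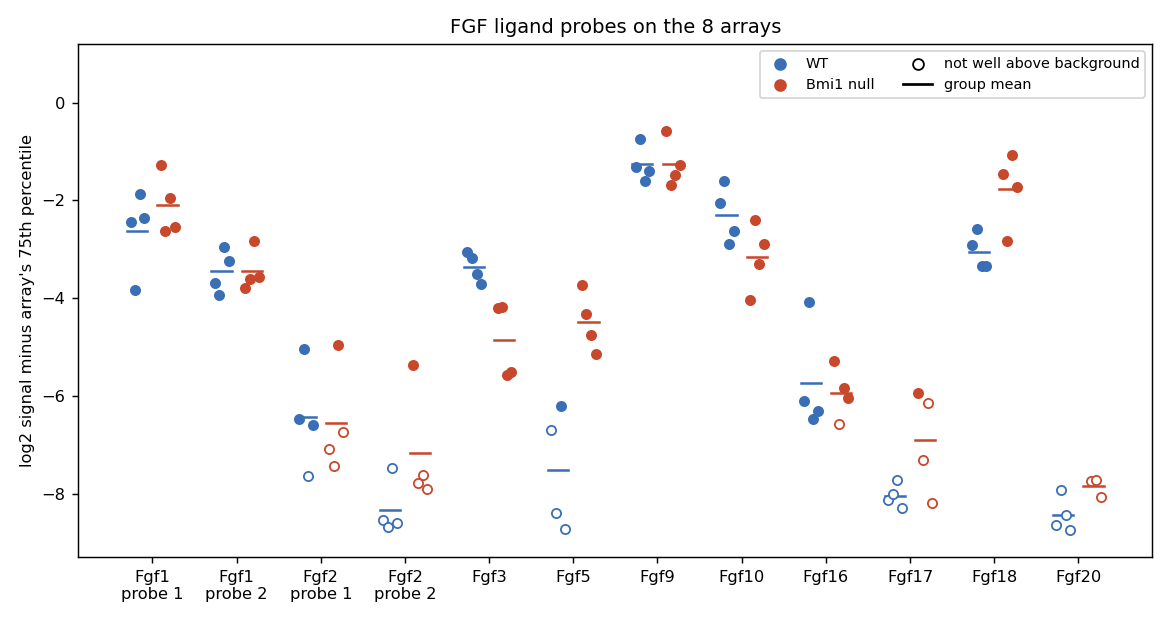
Levels of the 10 ligands on each array (y axis, log2 units from that array's 75th percentile), with 1 column for each of the 12 probes and WT and Bmi1 null arrays side by side. Points that were not well above background are drawn open, and horizontal bars are group means. The Fgf3 points of the null arrays all lie below those of WT, the Fgf5 points all above, and the Fgf9 points of both groups overlap.

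Fgf3 and Fgf10, the ligands known from the mesenchyme, both averaged lower in null samples. Fgf3, which binds the splice forms of its receptors found on epithelium, stood at -3.05, -3.19, -3.51 and -3.71 in the WT samples and at -4.20, -4.17, -5.57 and -5.52 in the null samples. Every null sample was below every WT sample, and null replicates 3 and 4 were the lowest. The log2 difference was -1.50 ± 0.39 (SE, n = 4 and 4, 95% confidence interval -2.37 to -0.63, limma adjusted p = 0.675), which is 2.83-fold, and it did not pass the test over all genes. The arrays lay on 2 slides, each with 2 samples of either genotype. The difference was -0.81 on the slide with null replicates 1 and 2 and -2.19 on the other. Null replicates 3 and 4 lay near the detection limit, since the lowest signals well above background on their arrays were -5.87 and -6.14.

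Fgf10, the ligand whose loss leaves the mouse incisor without a maintained cervical loop, stood at -2.05, -1.60, -2.90 and -2.62 in WT and at -4.05, -2.41, -3.31 and -2.90 in null samples. Null replicates 1 and 3 lay below all WT samples, and replicates 2 and 4 lay within the WT range, replicate 4 at its lower edge. The log2 difference of -0.87 ± 0.40 (95% confidence interval -1.76 to 0.01, adjusted p = 0.785) did not pass the test. It was -0.89 and -0.85 on the 2 slides. Leaving out null replicate 1 brought it to -0.58, and leaving out null replicate 2, where the mesenchyme markers were highest, to -1.12. For Fgf3 the values without 1 sample ran from -1.73 to -1.27. With normexp background correction the differences of Fgf3 and Fgf10 were both -0.27.

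Fgf9, an epithelial signal that acts on mesenchymal receptor forms, stood at -1.31, -0.75, -1.60 and -1.39 in WT samples and at -0.57, -1.68, -1.48 and -1.27 in null samples. The groups overlapped over nearly their whole range, and null replicate 1 was the highest of the 8. The log2 difference was 0.01 ± 0.29 (95% confidence interval -0.63 to 0.65, adjusted p = 0.995). The interval leaves room for a difference of -0.63 or of 0.65, so the value does not show that the genotypes were alike.

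Fgf20, a member of the Fgf9 subfamily, had no usable spot well above background. Its signals lay at -8.63, -7.92, -8.43 and -8.74 in WT and at -7.74, -7.72 and -8.06 in null replicates 2 to 4, all below the lowest signal well above background. The spot of null replicate 1 was marked as non-uniform by the scanner software and left out. No fold is given, since neither group had a usable spot well above background and only an upper bound of each is known.

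The contrast between the sides was taken as the mean of Fgf3 and Fgf10 minus Fgf9, each relative to its own WT mean, so that no probe's level was set against another's. It was -1.99, -0.05, -1.39 and -1.37 in null replicates 1 to 4, with a mean of -1.20 ± 0.82 (SD, n = 4), while the WT samples scattered around 0 with an SD of 0.23. Null replicates 1, 3 and 4 lay below the WT range, and replicate 2 lay inside it. In replicate 1 Fgf10 stood at -1.75 and Fgf9 at 0.69 from their WT means, while in replicates 3 and 4 Fgf3 was farthest from its WT mean, at -2.21 and -2.15. The epithelial side rested on Fgf9 alone, because Fgf20 had no usable spot well above background. The genes were chosen with earlier results known, so the contrast is a description without a test.

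**Figure D2:**
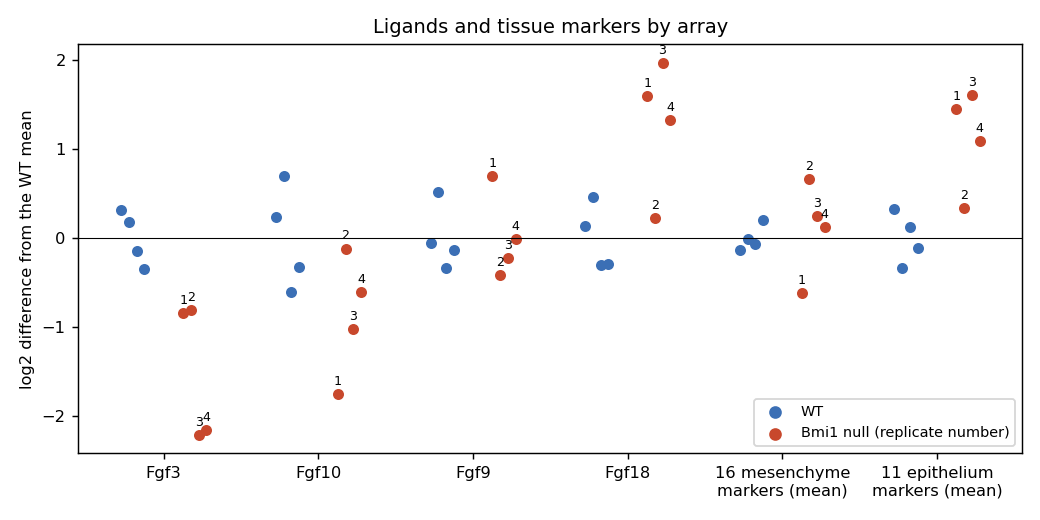
Fgf3, Fgf10, Fgf9 and Fgf18 and the means of the mesenchyme and epithelium markers on each array, as log2 difference from their WT mean, with null arrays numbered by replicate. In null replicate 2 Fgf3, Fgf10 and Fgf9 stand at -0.81, -0.12 and -0.41 while the mesenchyme markers are at 0.66, the highest of the 8 arrays.

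The marker values beside the contrast did not follow 1 order. The mesenchyme markers differed by 0.11 on average, with single genes from -1.58 to 1.91, while Fgf3 and Fgf10 differed by -1.50 and -0.87. In null replicates 3 and 4, where Fgf3 was lowest, the mesenchyme markers were above their WT mean, at 0.25 and 0.13. In null replicate 1, where Fgf10 was lowest, they were at -0.61 and the epithelium marker mean, with Odam and Klk4, at 1.45. The part of a shifted cell makeup in the ligand values was not tested beyond these values. Markers of endothelium differed by -0.45 and those of immune cells by -0.44 between the groups (exact permutation p = 0.0571 for both). The differences were -0.06 for Schwann cell, -0.98 for muscle and 0.32 for erythroid markers (exact permutation p = 0.857, 0.114 and 0.600).

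Fgf5 and Fgf18 had the largest positive differences among the ligands assigned to neither side. Fgf5, known in mice for ending the growth phase of hair, stood at -6.70, -8.39, -6.21 and -8.72 in WT and at -3.72, -4.33, -4.74 and -5.15 in null samples. It was well above background in 1 of 4 WT samples (replicate 3) and in all 4 null samples, and every null sample was above every WT sample. That separation was present only after scaling. Before it, the signal was 25.8 in WT replicate 3 and 54.9, 22.7, 16.4 and 22.4 in null replicates 1 to 4. The 75th percentile was 1902 on the array of WT replicate 3 and at most 796 on null arrays. The part of array brightness in the Fgf5 value was not tested. The fitted log2 difference was 3.02 ± 0.59 (95% confidence interval 1.71 to 4.33, adjusted p = 0.274), which is 8.10-fold, and did not pass the test. All 11 epithelium markers were also higher on average in null samples, and their part in the Fgf5 value was not tested. The difference was 3.69 and 2.35 on the 2 slides. Since WT signals other than that of replicate 3 were not well above background, the size of the difference depends on how background is treated. The difference was 1.39 when all signals under the highest detection level of any array were set to that level.

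Fgf18, a signal in bone and cartilage growth, stood at -2.91, -2.59, -3.35 and -3.34 in WT samples and at -1.46, -2.82, -1.08 and -1.73 in null samples. Null replicates 1, 3 and 4 lay above all WT samples, and replicate 2 lay among them. The log2 difference was 1.28 ± 0.37 (95% confidence interval 0.45 to 2.10, adjusted p = 0.681), which is 2.42-fold, and did not pass the test. It was 0.99 and 1.57 on the 2 slides and ran from 1.05 to 1.63 with 1 sample left out. The median difference of the 11 epithelium markers was 0.81, and the part of that shift in the Fgf18 value was not tested.

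**Figure D3:**
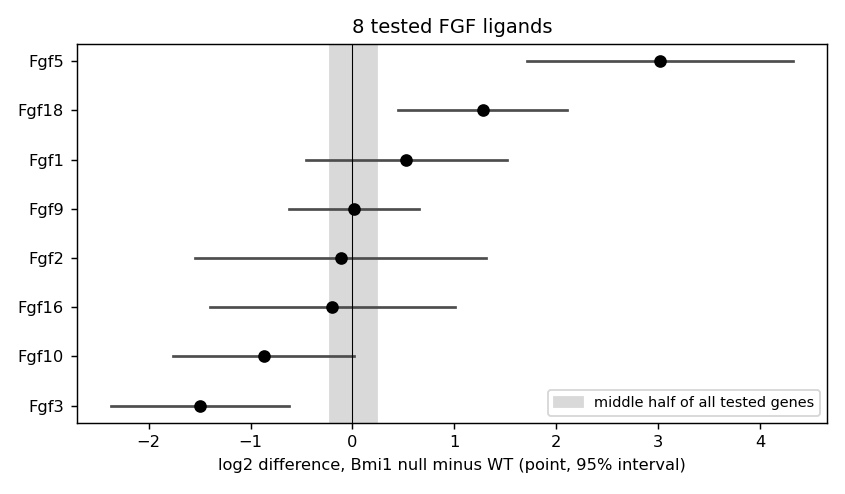
Log2 difference between Bmi1 null and WT samples for the 8 tested ligands, with 95% confidence intervals from limma, beside the quartiles of all 22345 genes. The intervals of Fgf3, Fgf5 and Fgf18 leave out 0, whereas that of Fgf10 reaches 0.01.

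Fgf1, the acidic FGF, which binds every FGF receptor and lacks a classical signal peptide, had 2 probes, both well above background on all 8 arrays. The brighter probe stood at -2.44, -3.84, -1.88 and -2.35 in WT and at -1.28, -2.63, -1.94 and -2.54 in null samples, and the groups overlapped. Its log2 difference was 0.53 ± 0.44 (adjusted p = 0.823), but 0.13 without WT replicate 2, the lowest sample, and 0.26 without null replicate 1, the highest. The other probe stood between -3.93 and -2.95 in WT and between -3.80 and -2.83 in null samples, with a difference of 0.00. The 2 probes thus gave different sizes, and neither separated the genotypes.

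Fgf2, the basic FGF, was near the detection limit. Its first probe stood at -6.48, -5.04, -7.64 and -6.58 in WT and at -7.08, -7.42, -4.96 and -6.73 in null samples and was well above background in 3 WT and 1 null samples. The groups overlapped fully, and the difference was -0.12 ± 0.64 (adjusted p = 0.973), with a sign that turned under other settings, as it did for Fgf9 and Fgf16. The second probe was well above background in null replicate 1 alone and was not tested.

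Fgf16, a relative of Fgf9 best known from the heart, stood at -6.11, -4.07, -6.47 and -6.31 in WT and at -5.29, -6.58, -5.84 and -6.03 in null samples. WT replicate 2 was the highest, and the other 7 samples overlapped. The difference was -0.20 ± 0.54 (adjusted p = 0.942). Fgf17, which belongs with Fgf8 and Fgf18 to the same subfamily, was well above background in null replicate 1 alone, at -5.94, and was not tested. Its other null samples stood at -7.30, -6.14 and -8.19 and its WT samples between -8.30 and -7.72.

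The rest of the FGF pathway was read from 5 lists of 60 genes in all, of which 58 were on the array and 51 were tested. None of the 51 passed the test, and 1 was higher and 1 lower at an unadjusted limma p under 0.05, where 4.2% of all genes were higher and 2.16% lower. Among the other ligands, 7 of 12 were tested, 4 with positive and 3 with negative differences. Fgf7, which like Fgf3 and Fgf10 is made by mesenchyme and acts on epithelium, stood at -2.00, -2.29, -3.74 and -2.61 in WT samples and at -5.95, -4.28, -5.17 and -2.76 in null samples. Null replicates 1 to 3 lay below all WT samples and replicate 4 within their range. The log2 difference was -1.88 ± 0.64 (adjusted p = 0.765). Fgf8, an early epithelial signal of the tooth, had a difference of 0.56 ± 0.32 (adjusted p = 0.790), and Fgf12, an intracellular relative that modulates sodium channels, one of 0.47 (adjusted p = 0.796).

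Of the receptors and co-receptors, 6 of 7 were tested, 3 with positive and 3 with negative differences and a median of -0.04. Fgfr2, whose epithelial splice form receives Fgf3 and Fgf10, had a log2 difference of -0.18. The smallest p-values belonged to Fgfr4, with -0.60 ± 0.46 (adjusted p = 0.815), Kl, the co-receptor of endocrine FGFs, with 0.52 (adjusted p = 0.815), and Fgfrl1, a receptor without kinase domain, with 0.30 (adjusted p = 0.830). All 13 genes of the signal relay were tested, and 11 had positive and 2 negative differences with a median of 0.15. The phosphatase Ptpn11 differed by 0.16 (adjusted p = 0.823) and the GTPase Hras by 0.34 (adjusted p = 0.841).

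Feedback inhibitors and target genes are commonly read as a gauge of FGF signalling, and 12 of 14 were tested. Of these 7 had positive and 5 negative differences, with a median of 0.03. Dusp6, a phosphatase that switches off ERK, stood at 4.62, 4.71, 4.13 and 4.16 in WT and at 3.37, 4.28, 4.00 and 4.18 in null samples. Its groups overlapped, null replicate 1 was lowest, and the difference was -0.45 ± 0.23 (adjusted p = 0.790). Spry4, a Sprouty inhibitor, had -1.05 ± 0.80 (adjusted p = 0.814) and Spred2 0.45 (adjusted p = 0.834). Spry1 and Spry2 had -0.02 and 0.12, and the ETS factors Etv4 and Etv5, which FGF signalling induces, had 0.33 and -0.36. Dimmer probes of Spry2 and Etv5, well above background on all 8 arrays, gave 0.77 and -0.03, so the size depended on the probe. These values lay on both sides of 0 and none passed the test.

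Extracellular handling covered heparan sulfate carriers and enzymes and FGF-binding proteins, and 13 of 14 genes were tested, 11 with positive and 2 with negative differences and a median of 0.18. Fgfbp1, an epithelial carrier that releases FGFs from the matrix, had 0.87 ± 0.39 (adjusted p = 0.782). Sdc1, a heparan sulfate carrier of epithelia, had 0.32 (adjusted p = 0.790), and Hs6st1, a heparan sulfate sulfotransferase, had 0.42 (adjusted p = 0.795). These positive values stood beside a median difference of 0.81 for the epithelium markers, and the part of that shift in them was not tested.

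**Figure D4:**
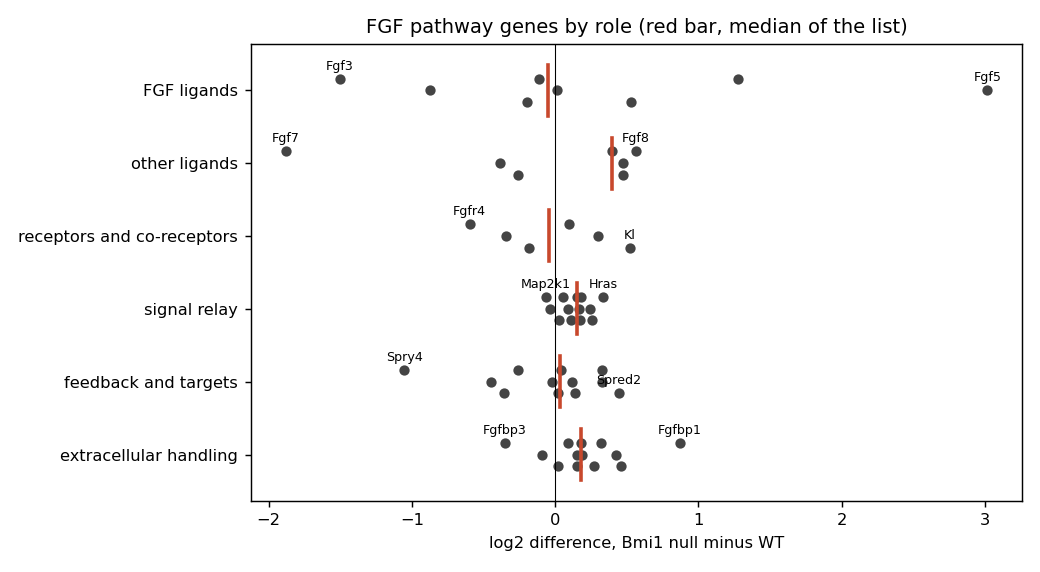
Log2 difference between Bmi1 null and WT samples for each tested gene of the FGF ligands and of the other pathway lists, 1 point per gene, with the median of each list. The list medians run from -0.05 for the 8 tested ligands to 0.40 for the other ligands.

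The genes closest in pattern were those with the smallest root mean square difference over the 8 arrays after centring each gene on its own mean. For Fgf3, whose own root mean square spread was 0.91, they were Trarg1 (0.356), Rem1 (0.391) and Pianp (0.393). For Fgf10, with a spread of 0.71, they were Depdc1a (0.183), Gria1 (0.191) and Myom1 (0.197), and for Fgf9, with a spread of 0.37, Kdm2b (0.106), Pfdn2 (0.136) and Zc3h7b (0.160). None of the 3 ligands was among the closest genes of another. Only 3 genes were kept for each ligand, so this absence does not show that the ligands differed in pattern.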

How the data were processed

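Per the labels' protocols, Cy3-labelled RNA of peeled incisor epithelium was hybridised for 4 WT and 4 null samples. The authors read the arrays on a G2505C scanner in Feature Extraction version 10.5.1.1, with GE1-v5_95_Feb07 as protocol and a grid of build mm9, per the file headers. The deposited processed signal is a linear intensity, corrected for background within the array, and the deposited spot indicators are 0 or 1. The series' deposited value table holds log2 values close to the median signal, with no background subtraction and a common distribution across arrays (75th percentile 9.82 in each column); how it was made was not stated, and it served as an alternative.

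Signals were taken to log2 minus the array's 75th percentile, without control spots (1417) and outlier spots. Probes well above background on at least 4 of 8 arrays entered (28603), and a gene was read from its entering probe with the highest mean. An entering probe without a gene name stood as a gene of its own. RefSeq gene tables named 24844 of 41174 probes and placed all 12 ligand probes. Groups were compared in R 4.3.3 with limma 3.58.1 (eBayes with trend, two-sided, no covariates, Benjamini-Hochberg over 22345 genes at 5%). The fit was tested on data simulated with normal noise of each gene's own spread. There, 13 of 50 genes shifted by a log2 of 1 passed the 5% false discovery rate. Of those shifted by 2, 36 of 50 passed, and of those shifted by 3, 48 of 50. A true difference of the size seen for Fgf10, Fgf18 or Fgf3 could therefore often fail to pass. The number of arrays limits the precision. The labels pair no samples.

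The ligands and gene lists were chosen with earlier results of these data known. Genes named from the pathway lists were the 3 with the smallest p in each list, of which 1 is not reported here, besides Fgfr2, Etv4, Etv5, Spry1 and Spry2, named for their roles after their values were seen. WT replicate 1 was read from the array that the records tie to it, although its title carries another number.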

Additional observations from a re-analysis of the deposited data

Results flagged for a closer look

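For each ligand probe and marker list, the highest and the lowest of the 4 samples of a group were set against the others, and 3 of 37 groups held a sample whose gap to its nearest neighbour exceeded Dixon's 95% critical share of the group's whole range. Chance marks about 1 group in 20.

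Fgf16 was far higher in WT replicate 2, at -4.07, than in the other WT samples, where it lay between -6.47 and -6.11. The second Fgf2 probe stood at -7.47 in WT replicate 3 and between -8.67 and -8.54 in the other WT samples, all not well above background. The same probe stood at -5.37 in null replicate 1, where it was well above background, and between -7.90 and -7.61 in the other null samples.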

How the results depend on the processing

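No tested ligand passed the 5% false discovery rate under any of the 24 alternatives, with lowest adjusted p-values from 0.159 (no detection filter) to 0.794. Fgf1, Fgf3, Fgf10 and Fgf18 kept their direction in the 23 alternatives that gave them a value, and Fgf5 in 22. Several of these alternatives changed only the filter or the test and could not turn a direction. The Fgf3 difference, for example, stayed at -1.50 without a filter and without an intensity trend. Fgf2, -0.12 as reported, was 0.71 after normexp correction, 0.020 with a common floor, 0.49 on slide 2 alone and 0.29 with array weights, and ran from -0.64 to 0.35 with 1 sample left out. Fgf9, 0.01 as reported, was -0.20 on slide 2 and -0.12 with array weights, and from -0.21 to 0.18 with 1 sample left out. Fgf16, -0.20 as reported, was 0.66 after normexp and 0.27 on slide 1, and from -0.44 to 0.36. The mesenchyme marker shift, 0.11 as reported, was -0.13 after quantile and -0.037 after cyclic loess normalization, -0.016 on slide 1, and from -0.079 to 0.35. The contrast between the sides, -1.20 as reported, was -0.44 after normexp, where Fgf3 and Fgf10 were both -0.27 and Fgf5 1.12; it ran from -1.58 to -0.94 with 1 sample left out. Fgf5 was 0.90 in the series' value table. The median of all genes moved to 0.17 under normexp and 0.13 without the filter. Of all genes, 11 passed as reported, 5 under normexp, 7 with the floor, 0 when all 8 arrays had to detect a probe, 1 and 19 on slides 1 and 2, and 22 with array weights. Of the 10 ligands, 8 were detected on at least 4 arrays, 9 when a signal only had to be positive and significant, and 6 when it had to exceed the common floor. The causes of these shifts were not tested. No paired analysis was possible because the replicate numbers were given in accession order and pair no samples.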

Other observations

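Fgf20 had 1 usable value fewer than the other ligands. The spot of null replicate 1 that the scanner software marked as non-uniform had a processed signal of 262, which is -1.47 on the log2 scale relative to the 75th percentile. The other 7 arrays stood at -7.72 or below.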
